A study of Mus musculus with 9 samples.

Results

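The ligands described here are cell-surface proteins through which a tumour cell is recognised by natural killer (NK) cells. The set was chosen by symbol from the table of read counts: 6 of the 9 listed symbols matched a row (Raet1d, Raet1e, H60b, H60c, Ulbp1 and Clec2d), of 55418 symbols in all, and all 6 passed the filter on low counts along with 15914 genes in total. Raet1a, Raet1b and Raet1c are not analysed here. The cells were 66cl4, a cultured line of mouse triple negative mammary carcinoma, in 3 groups of 3 libraries labelled as biological replicates: shEya3_KD2 and shEya3_KD1, which carry different short hairpin RNAs named for the transcriptional co-activator Eya3, and SCR, which carries a scrambled hairpin. All 3 groups were transduced and kept in puromycin, and the labels do not say whether any of them is a clone. Short hairpin RNAs are trimmed in the cell to small RNAs that guide the breakdown of a matching transcript.

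NKG2D is an activating receptor of NK cells and some T cells. Its mouse ligands are distant relatives of MHC class I proteins: the Raet1 family (RAE-1 proteins), the H60 family and Ulbp1, also called MULT1. They are low or absent on most healthy cells and are raised by transformation, infection and DNA damage, so that a stressed cell can be attacked. Clec2d, also called Clr-b, works the other way: this C-type lectin-like protein engages the inhibitory mouse receptor NKR-P1B, and its loss from a cell removes a brake on NK cells. Raet1 genes differ between mouse strains: Raet1d and Raet1e are described in C57BL/6, the strain of the reference genome, and Raet1a, Raet1b and Raet1c in BALB/c, the background from which 66cl4 derives. How reads of such alleles were aligned and counted was not tested.

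The genes lie in 4 places of mm10. Raet1e (chromosome 10, 22158569 to 22374139), H60b (22158586 to 22288849) and Raet1d (22360552 to 22374139) share 1 locus on the plus strand. H60c (chromosome 10, 3256208 to 3267771) and Ulbp1 (chromosome 10, 7440362 to 7473638) lie on the minus strand, each apart from it. Clec2d (chromosome 6, 129180615 to 129186534) lies on the plus strand among other Clec2 genes. In GENCODE M21 the exons of Raet1e share 363 bases with those of Raet1d and 133 bases with those of H60b, through a Raet1e transcript that ends in the last exon of Raet1d and an H60b transcript that begins in the first exon of Raet1e. RefSeq instead ends Raet1e at 22189697 and begins H60b at 22273474, so that the 3 genes do not overlap there. The sequences are close as well: 55.8% of the 50-base stretches of Raet1d transcripts also occur in Raet1e, 40.3% of those of Raet1e occur in Raet1d, and 7.58% of those of H60b occur in Raet1e. For Ulbp1 and Clec2d 98.2% and 98.0% of such stretches occur in no other gene. Reads may therefore be divided between Raet1d and Raet1e in a way the counts do not show, and their separate values are uncertain.

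**Figure D1:**
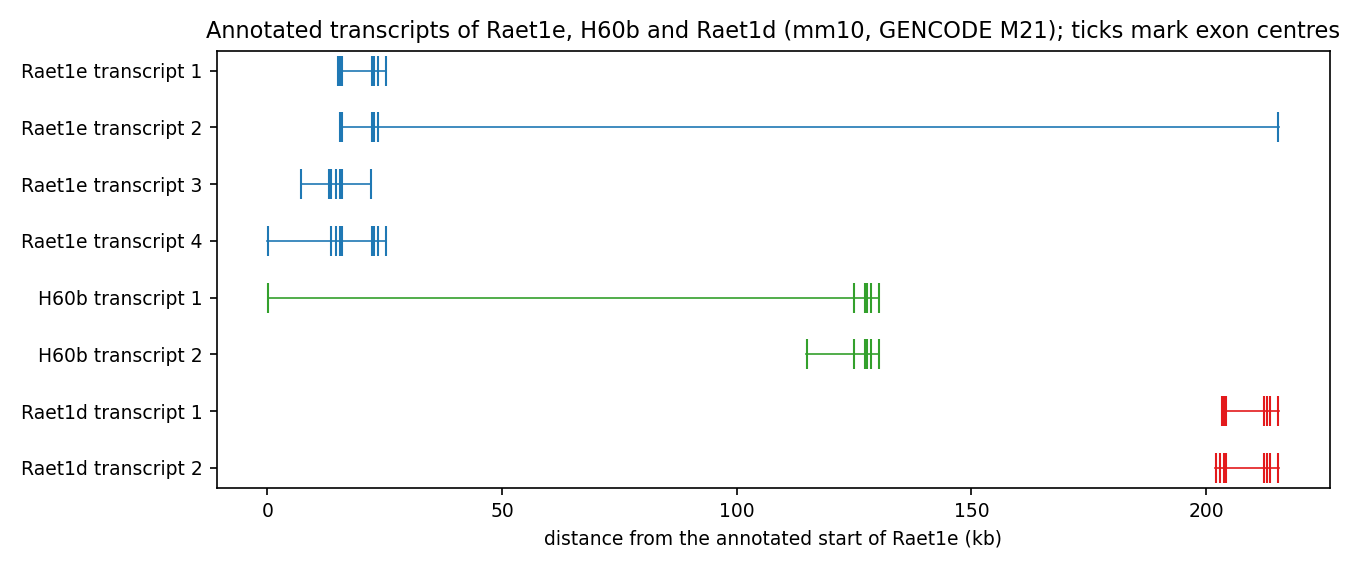
Annotated transcripts of Raet1e, H60b and Raet1d by distance from the annotated start of Raet1e in kb; ticks mark exon centres, and tick width is not the exon width. A Raet1e transcript reaches into Raet1d, and an H60b transcript starts beside the start of Raet1e.

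The promoter windows of the ligands are shown because members that moved together can be compared there letter by letter. Each runs from 250 bases before to 50 bases after a listed start (GRCm38.p6). For some genes this start is not the first base of the gene in RefSeq or GENCODE. Windows of 5 of the 6 genes were matched by symbol, all but H60b. Capitals mark matches, on either strand, to any of 5 motifs that were picked after the sequences had been seen: the E2F core TTCCCGC, the GC box GGGCGG, the interferon-stimulated element (GAAA, any 2 bases, GAAA), the heat shock element (GAA, any 2 bases, TTC, any 2 bases, GAA) and the TATA box TATAAA. The windows are chr10:22361644-22361943 (plus strand) for Raet1d, chr10:22173247-22173546 (plus) for the inner start of Raet1e, chr10:7473428-7473727 (minus) for Ulbp1 and chr6:129180365-129180664 (plus) for Clec2d.
Raet1d: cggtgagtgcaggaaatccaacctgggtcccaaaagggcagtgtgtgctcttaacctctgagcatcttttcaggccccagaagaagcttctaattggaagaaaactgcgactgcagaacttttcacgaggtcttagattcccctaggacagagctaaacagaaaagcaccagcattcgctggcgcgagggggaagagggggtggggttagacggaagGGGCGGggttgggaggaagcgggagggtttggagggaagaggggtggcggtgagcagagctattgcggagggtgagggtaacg
Raet1e: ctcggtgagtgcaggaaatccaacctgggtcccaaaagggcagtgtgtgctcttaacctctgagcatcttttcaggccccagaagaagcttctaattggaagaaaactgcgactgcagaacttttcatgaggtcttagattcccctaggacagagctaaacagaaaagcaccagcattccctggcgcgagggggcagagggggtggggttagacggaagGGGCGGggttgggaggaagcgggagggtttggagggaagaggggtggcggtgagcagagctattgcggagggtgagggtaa
Ulbp1: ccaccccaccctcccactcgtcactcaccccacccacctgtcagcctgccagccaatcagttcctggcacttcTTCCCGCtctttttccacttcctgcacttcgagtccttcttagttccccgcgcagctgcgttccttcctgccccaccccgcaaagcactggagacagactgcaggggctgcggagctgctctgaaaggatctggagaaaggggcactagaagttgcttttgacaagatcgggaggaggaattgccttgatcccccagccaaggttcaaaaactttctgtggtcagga
Clec2d: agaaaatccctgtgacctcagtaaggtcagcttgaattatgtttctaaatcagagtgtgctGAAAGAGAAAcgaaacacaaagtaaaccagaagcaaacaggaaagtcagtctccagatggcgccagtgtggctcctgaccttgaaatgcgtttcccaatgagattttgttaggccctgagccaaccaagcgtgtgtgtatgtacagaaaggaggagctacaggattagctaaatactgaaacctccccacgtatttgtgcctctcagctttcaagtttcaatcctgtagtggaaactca

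The Raet1d window and the inner Raet1e window aligned over 298 bases, of which 295 were identical, and both hold a GC box, as 35.7% of 32851 promoter windows do. The outer Raet1e window, not printed, holds 3 GC boxes. The Ulbp1 window holds an E2F core 177 bases before the start used for the window, found in 4.60% of windows. RefSeq begins Ulbp1 at 7473641, inside that window and nearer to the core. The Clec2d window holds an interferon-stimulated element 189 bases before the start, found in 3.44% of windows. H60c had none of the 5 motifs in its window, and none of the 5 genes with a window had the heat shock element (0.603% of windows) or the TATA box (13.6%). A match describes the letters only.

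Library totals ran from 27758862 to 52691960 counts, and the 6 ligands together took 4732 to 10915 counts per library. Eya3 stood at 34.1 to 39.8 CPM (TMM-scaled counts-per-million) in shEya3_KD2, 21.5 to 24.9 CPM in shEya3_KD1 and 68.1 to 79.0 CPM in SCR. The label of a mammary carcinoma was checked against marker genes: Krt8 averaged 792, 1315 and 679 CPM in shEya3_KD2, shEya3_KD1 and SCR, and Vim was higher still, whereas Epcam had no counts in any library and Cdh1 stayed at or below 0.259 CPM. The other listed keratins were low in SCR, with Krt18 at 0.0277, Krt5 at 0.0211, Krt7 at 0.442 and Krt14 at 1.32 CPM. Their highest mean in a hairpin group was 11.8 CPM, for Krt14 in shEya3_KD2. Of the receptors that define a triple negative tumour Pgr had no counts, Esr1 was at 16.0, 14.8 and 7.12 CPM, and Erbb2 was at 67.1, 65.4 and 53.6 CPM in shEya3_KD2, shEya3_KD1 and SCR. Ncr1, Klrb1c, Klrk1, Klrd1, Klre1 and Gzmb, defining genes of NK cells, had no counts in any library. The 9 NK markers summed to 32.0 to 36.1 CPM in shEya3_KD2, 22.0 to 24.8 CPM in shEya3_KD1 and 22.9 to 24.8 CPM in SCR, nearly all of it from Eomes. The 10 macrophage markers summed to 21.6 to 27.6, 27.1 to 32.0 and 47.2 to 50.7 CPM in the same order, with C1qa and C1qc without counts throughout and Lyz2 and Cd68 carrying most of the sum. The 5 endothelial markers summed to 1.85 to 2.43, 2.15 to 3.04 and 3.52 to 4.11 CPM, with Kdr without counts in both hairpin groups. Both of these sums were lower with either hairpin, as the NKG2D ligands were, but single markers differed. In shEya3_KD2, shEya3_KD1 and SCR, Lyz2 averaged 11.1, 25.1 and 38.6 CPM, and Cd68 12.1, 3.54 and 9.64 CPM. Cdh5 averaged 2.13, 0.264 and 3.72 CPM in the same order, and Emcn 0, 2.24 and 0.0132 CPM. The part of these markers in the results was not tested. The 6 fibroblast markers summed to 28.7 to 41.2, 38.5 to 40.8 and 28.3 to 35.4 CPM (Thy1 without counts), and the 7 T and B cell markers to at most 1.40 CPM.

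With shEya3_KD2 all 5 measured NKG2D ligands fell and Clec2d rose, and with shEya3_KD1 all 6 ligands fell. Genes were called at an adjusted p of 0.05, by the quasi-likelihood test of edgeR with p adjusted (Benjamini-Hochberg) over all genes tested. In shEya3_KD2 against SCR 45.3% of all genes tested were called, 22.3% lower and 23% higher. In shEya3_KD1 against SCR 50.3% were called, 26.2% lower and 24.1% higher. Libraries did not overlap, with shEya3_KD2 below SCR for 27% of genes and above for 27.4%, and with shEya3_KD1 below SCR for 30.4% and above for 28.9%; the ligands' libraries did not overlap in the direction of each call. The median log2 fold change of the 6 ligands was -0.92 with shEya3_KD2 and -1.17 with shEya3_KD1, beside -0.0044 and 0.014 over all genes. Both comparisons use the same SCR libraries, so they are not independent of each other. In cultures measured in bulk, fewer cells with a transcript and less transcript per cell cannot be told apart.

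**Figure D2:**
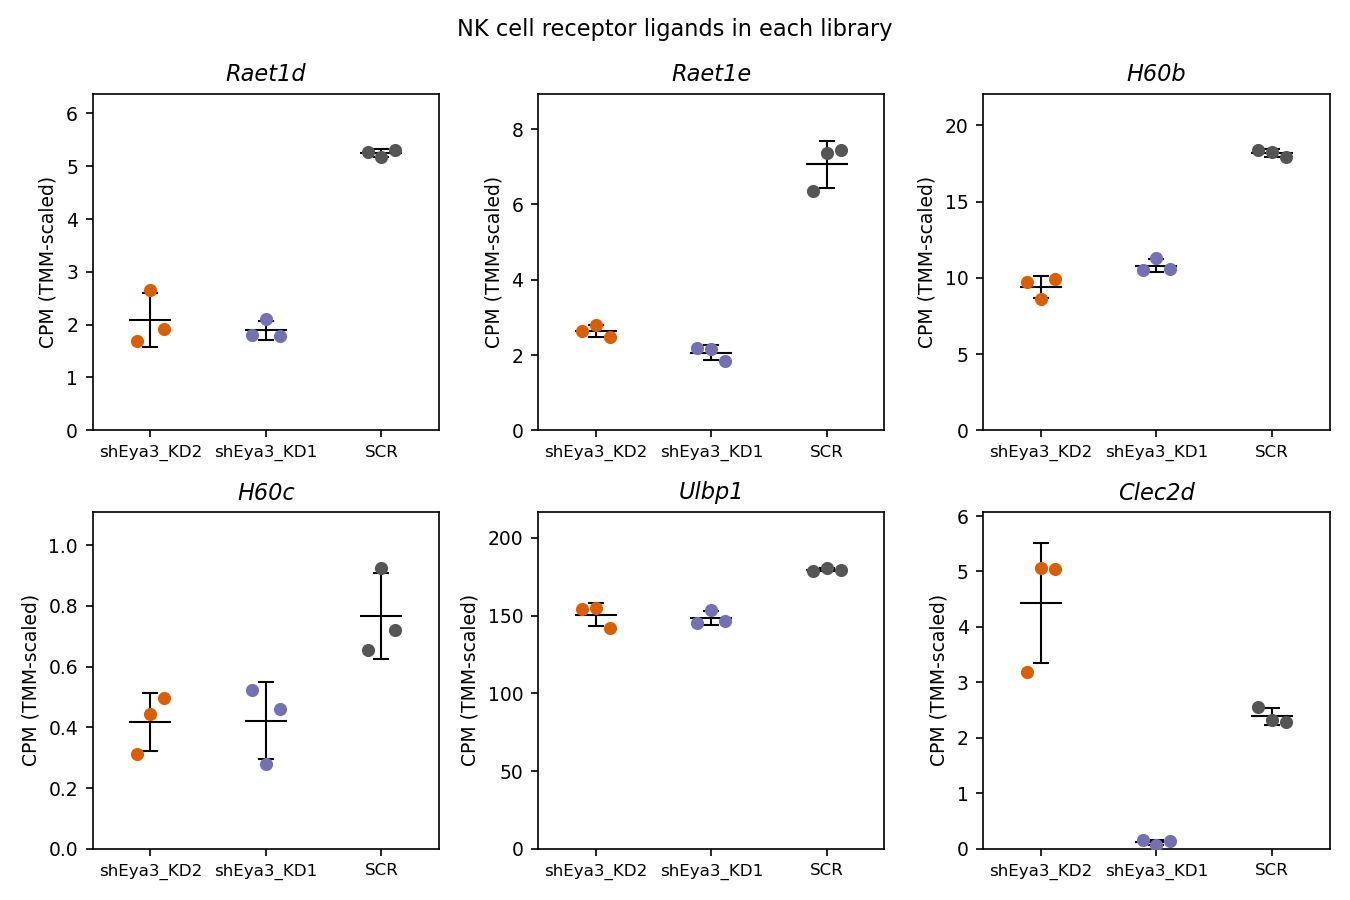
TMM-scaled CPM of each ligand (y axis, from 0, a scale per panel) in shEya3_KD2, shEya3_KD1 and SCR; points are the 3 libraries, the dash is their mean and the bar their SD. The 5 NKG2D ligands are highest in SCR, while Clec2d is highest in shEya3_KD2 and near 0 in shEya3_KD1.

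Raet1e, a RAE-1 protein, had 2.63, 2.81 and 2.48 CPM in shEya3_KD2, 2.20, 2.15 and 1.84 CPM in shEya3_KD1, and 6.35, 7.37 and 7.45 CPM in SCR. The 3 groups did not overlap. The log2 fold change was -1.42 ± 0.12 (SE) with shEya3_KD2 (adjusted p = 2.66e-07) and -1.77 ± 0.12 with shEya3_KD1 (adjusted p = 1.35e-08), which is 2.68-fold and 3.40-fold lower than SCR. Raet1d lies in the same locus and shares part of its sequence with Raet1e. It had 1.70, 2.66 and 1.91 CPM in shEya3_KD2, 1.80, 2.11 and 1.79 CPM in shEya3_KD1, and 5.27, 5.17 and 5.31 CPM in SCR. All hairpin libraries were below all SCR libraries, and the hairpin groups overlapped each other. The log2 fold changes of Raet1d were -1.37 ± 0.15 (adjusted p = 4.00e-06) and -1.46 ± 0.15 (adjusted p = 9.63e-07).

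H60b, an H60 glycoprotein encoded between Raet1e and Raet1d, had 9.71, 8.61 and 9.91 CPM in shEya3_KD2, 10.5, 11.3 and 10.6 CPM in shEya3_KD1, and 18.4, 18.2 and 17.9 CPM in SCR. Its libraries separated into the 3 groups, with shEya3_KD2 lowest. The log2 fold change was -0.94 ± 0.08 with shEya3_KD2 (adjusted p = 2.97e-07) and -0.75 ± 0.08 with shEya3_KD1 (adjusted p = 1.24e-06). The counts of Raet1d, Raet1e and H60b were also summed to 1 value, in which the division of counted reads between them plays no part. The log2 fold change of this locus was -1.11 with shEya3_KD2 and -1.05 with shEya3_KD1, and both passed the test. Reads that were counted for none of these genes are not recovered by the sum, and their number was not tested.

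H60c, an H60 protein known in mouse skin, was the scarcest of the measured NKG2D ligands. Reads numbered 16, 12 and 21 in shEya3_KD2, 21, 12 and 16 in shEya3_KD1 and 33, 47 and 30 in SCR. On the CPM scale these were 0.312 to 0.496, 0.281 to 0.525 and 0.653 to 0.924, so that the hairpin libraries were all below those of SCR. Log2 fold changes were -0.91 ± 0.28 (adjusted p = 0.0174) and -0.87 ± 0.28 (adjusted p = 0.0183). The calls rest on few reads: the adjusted p was 0.105 without shEya3_KD2 replicate 1 and 0.0788 without SCR replicate 2 in the first comparison, and 0.0947 without shEya3_KD1 replicate 2 and 0.0813 without SCR replicate 2 in the second. By DESeq2 they were 0.0532 and 0.0625.

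Ulbp1, the transmembrane ligand MULT1, was the most abundant of the measured NKG2D ligands and changed least. It had 155, 155 and 142 CPM in shEya3_KD2, 145, 154 and 147 CPM in shEya3_KD1, and 179, 181 and 179 CPM in SCR. Each hairpin library lay below each SCR library, and the hairpin groups overlapped. The log2 fold changes were -0.25 ± 0.06 (adjusted p = 0.00334) and -0.27 ± 0.06 (adjusted p = 0.00155), or 83.9% and 82.7% of the SCR mean.

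Clec2d had 3.18, 5.06 and 5.05 CPM in shEya3_KD2, 0.150, 0.0702 and 0.144 CPM in shEya3_KD1, and 2.55, 2.32 and 2.28 CPM in SCR. The groups did not overlap: the inhibitory ligand was highest with shEya3_KD2 and nearly absent with shEya3_KD1, where the 3 libraries held 6, 3 and 5 reads against 129, 118 and 95 in SCR. Its log2 fold change was 0.87 ± 0.18 with shEya3_KD2 (adjusted p = 0.00100, 1.83-fold higher) and -4.29 ± 0.32 with shEya3_KD1 (adjusted p = 3.07e-08, 19.6-fold lower). shEya3_KD2 replicate 1 lay closest to SCR, and without it the log2 fold change was 1.08. Eomes, the NK marker with most of the list's counts, was also higher with shEya3_KD2 (log2 fold change 0.53 ± 0.07). Nkg7 had 2, 0 and 1 reads and Prf1 had 2, 0 and 0 reads in shEya3_KD2, shEya3_KD1 and SCR, and the 6 defining NK genes named above had none.

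**Figure D3:**
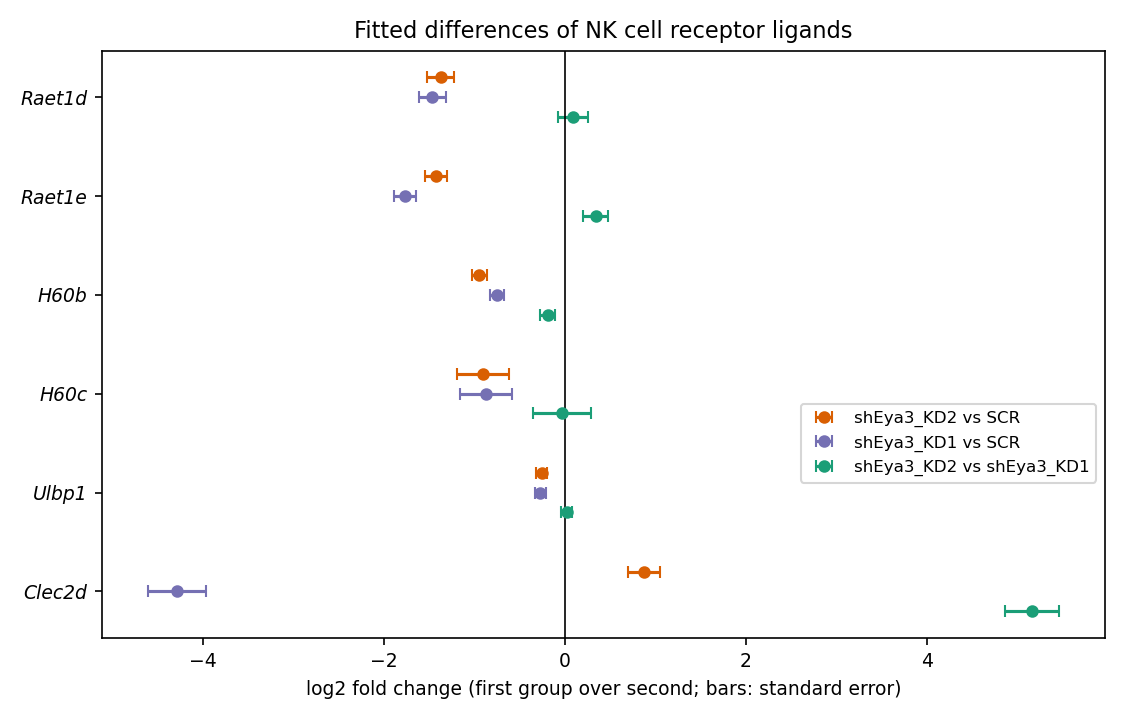
Log2 fold changes (x axis) of the 6 ligands in edgeR's fit with standard errors, for shEya3_KD2 against SCR, shEya3_KD1 against SCR and shEya3_KD2 against shEya3_KD1. The NKG2D ligands lie between -1.77 and -0.25 against SCR with either hairpin, and Clec2d lies at 0.87 and -4.29.

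The direct comparison of shEya3_KD2 with shEya3_KD1 asked whether the hairpins differed. Of the 6 ligands 2 were called higher in shEya3_KD2 and none lower, against a background of 49.6% of all genes called, 27% higher and 22.5% lower. Libraries did not overlap for 2 ligands higher in shEya3_KD2 and 1 lower, against 29.5% and 24.8% of all genes. Clec2d differed by 5.16 ± 0.30 on the log2 scale (adjusted p = 2.40e-09), with each shEya3_KD2 library above each shEya3_KD1 library. Raet1e was higher by 0.34 ± 0.14 (adjusted p = 0.0491), a call that was lost in every alternative fit except those with a filter of 1 CPM in 3 libraries and without shEya3_KD2 replicate 3, and the summed locus had a difference of -0.06 ± 0.07 (adjusted p = 0.494). H60b had a difference of -0.19 ± 0.08 (adjusted p = 0.0664), although its libraries did not overlap. Raet1d (0.09 ± 0.17), H60c (-0.03 ± 0.32) and Ulbp1 (0.02 ± 0.06) did not pass the test, which does not show that the hairpins act alike on them.

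Levels of different genes were compared as CPM per kb of annotated exon. In SCR the order was Ulbp1 (26.7 ± 0.123 CPM per kb, SD, n = 3), H60b (15.0 ± 0.196), Raet1d (3.64 ± 0.0505), Raet1e (3.27 ± 0.284), Clec2d (1.97 ± 0.121) and H60c (0.272 ± 0.050), with no overlap between the libraries of neighbours. In shEya3_KD2 Clec2d (3.65 ± 0.893) stood next after Ulbp1 (22.4 ± 1.09) and H60b (7.76 ± 0.580), and the libraries of Raet1d (1.18 to 1.85) and Raet1e (1.15 to 1.30) overlapped. In shEya3_KD1 Clec2d (0.100 ± 0.0366) stood last, and its libraries overlapped those of H60c (0.0997 to 0.186). Shares were taken of the level per kb summed over the NKG2D ligands analysed here. Raet1a, Raet1b and Raet1c, described in BALB/c, are not in that sum. H60a, another member of the H60 family, had no row in the counts and is not in it either. The values are therefore not shares of all NKG2D ligand transcripts. Ulbp1 made up 66.1% to 68.9% of that sum in shEya3_KD2, 65.9% to 66.5% in shEya3_KD1 and 54.6% to 54.7% in SCR. Raet1e made up 3.59% to 3.88%, 2.60% to 3.11% and 6.05% to 7.07%. The summed level itself was 32.0 to 33.5, 32.7 to 34.7 and 48.6 to 49.2 CPM per kb.

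Genes that resembled a member were named by correlation of log2 CPM over the 9 libraries. The 9 points are 3 libraries from each of 3 groups, so they share group means, and no test was made. Clec2d was most like Hyal1 (r = 0.994), a hyaluronidase, Oas1c (r = 0.992), of the oligoadenylate synthetase family, and AA467197 (r = 0.992), and 401 genes had an r of at least 0.95. Oas1c averaged 6.22 CPM in shEya3_KD2, 1.12 CPM in shEya3_KD1 and 4.77 CPM in SCR. Ulbp1 was the highest of the measured NKG2D ligands. It was most like Armc9 (r = 0.989), the tendon transcription factor Scx (r = 0.985) and the scavenger receptor Stab1 (r = 0.984). In all, 70 genes had an r with Ulbp1 of at least 0.95. A high r does not mean a like level or size of change. Stab1 averaged only 0.0650, 0.0671 and 0.487 CPM in shEya3_KD2, shEya3_KD1 and SCR, with log2 fold changes of -2.83 and -2.79 against SCR.

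The nearest tested genes beside each locus were read out after the members' values had been seen. Beside the Raet1 locus, Gm4895 at 4.20 kb had log2 fold changes of 0.0084 ± 0.14 with shEya3_KD2 and -0.29 ± 0.15 with shEya3_KD1, and neither passed the test. On the other side Gm10825 at 28.7 kb fell by 1.95 ± 0.23 with shEya3_KD2 and fell by 3.54 ± 0.28 with shEya3_KD1 on the log2 scale; 151 of its 50-base stretches also occur in H60c. Beside Clec2d, 2310001H17Rik at 21.9 kb had -0.27 ± 0.20 with shEya3_KD2, which did not pass, and fell by 3.84 ± 0.32 with shEya3_KD1. On its other side Clec2f at 160.1 kb rose with both, by 0.26 ± 0.08 with shEya3_KD2 and 0.77 ± 0.08 with shEya3_KD1. Beside H60c, Ppp1r14c at 98.3 kb had 0.19 ± 0.09 with shEya3_KD2 and -0.11 ± 0.09 with shEya3_KD1, and neither passed. Around Ulbp1, Cnksr3 rose with shEya3_KD1 (0.21 ± 0.08), Pcmt1 fell with shEya3_KD2 (-0.32 ± 0.08), and the other 2 values did not pass.

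The Clec2 relatives of Clec2d were chosen after their values had been seen. Clec2f rose with both hairpins, to 23.3 ± 2.58 CPM in shEya3_KD2 and 33.1 ± 1.17 CPM in shEya3_KD1, against 19.5 ± 1.25 CPM in SCR (log2 fold changes 0.26 ± 0.08 and 0.77 ± 0.08). Clec2i, which encodes Clr-g, had 10 reads in shEya3_KD2, 2 in shEya3_KD1 and 66 in SCR, and was called lower with both. Clec2g had 19, 0 and 30 reads and was too low to test. Clec2d shares 12 of its 50-base stretches with Clec2g and 11 with Clec2i, and none with Clec2f.

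Of 22 other ligands of NK cell receptors 21 had a row in the counts, all but H60a, and 12 were tested. Of the 12, 5 rose and 2 fell with shEya3_KD2, with a median of 0.10. With shEya3_KD1 4 rose and 8 fell, with a median of -0.55. Of all genes tested 23% rose and 22.3% fell with shEya3_KD2, and 24.1% rose and 26.2% fell with shEya3_KD1. Cd48, a ligand of the receptor 2B4, had 5.71 ± 1.01 CPM in shEya3_KD2, 0.710 ± 0.0587 CPM in shEya3_KD1 and 9.44 ± 0.670 CPM in SCR (log2 fold changes -0.72 ± 0.12 and -3.74 ± 0.16). The class I molecules H2-T23 (Qa-1, seen by CD94/NKG2A) and H2-D1 (seen by Ly49 receptors) fell with shEya3_KD1, by 1.22 ± 0.14 and 1.09 ± 0.07 on the log2 scale, and had -0.21 ± 0.13 and -0.11 ± 0.07 with shEya3_KD2, which did not pass. Among 23 regulators of NKG2D ligand genes 8 rose and 3 fell with shEya3_KD2 (median 0.14), and 4 rose and 8 fell with shEya3_KD1 (median -0.11). Over all genes tested 45.3% and 50.3% were called in either direction, and no list was tested as a set. The DNA damage kinase Atm rose with shEya3_KD2 (0.81 ± 0.13), and the NF-kB subunit Rela fell with shEya3_KD1 (-0.73 ± 0.08). The ubiquitin ligases March4 and March9 can target the MULT1 protein, and both were chosen after their values were seen. March4 had 12 reads in shEya3_KD2, 2 in shEya3_KD1 and 45 in SCR, and was called lower with both hairpins (adjusted p = 0.00956 and 1.47e-04). March9 had log2 fold changes of -0.17 ± 0.09 with shEya3_KD2, which did not pass, and -0.32 ± 0.09 with shEya3_KD1, which did.

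NKG2D ligands can be shed from the cell by proteases, and several are held by a glycosylphosphatidylinositol (GPI) anchor. Of 8 tested shedding proteases and inhibitors 3 rose and 4 fell with shEya3_KD2, and 3 rose and 3 fell with shEya3_KD1. The matrix proteases Mmp9 and Mmp14 fell with both, by 1.43 ± 0.10 and 0.56 ± 0.09 on the log2 scale with shEya3_KD2 and by 4.87 ± 0.14 and 1.35 ± 0.09 with shEya3_KD1, and Adam9 rose with both (0.69 ± 0.06 and 0.51 ± 0.06). Of 26 tested genes of GPI anchor synthesis 5 rose and 7 fell with shEya3_KD2 (median -0.05), and 8 rose and 4 fell with shEya3_KD1 (median 0.15). Beside these lists, 45.3% of all genes tested were called with shEya3_KD2 and 50.3% with shEya3_KD1. Pigh, a subunit of the enzyme of the first step, fell with both (-0.42 ± 0.14 and -1.12 ± 0.15), Pgap3 rose with both (0.47 ± 0.13 and 0.83 ± 0.12), and Dpm3 rose with shEya3_KD1 (1.12 ± 0.11). Most of the receptors themselves were nearly absent: of 16 NK receptor and adaptor genes listed by the counts only 2 passed the filter. Tigit was an exception, at 74.2 ± 6.65, 65.6 ± 2.69 and 74.0 ± 2.32 CPM in shEya3_KD2, shEya3_KD1 and SCR. It did not pass in either comparison with SCR. Cd96 had 45, 1 and 0 reads in the same order and was called higher with shEya3_KD2.

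**Figure D4:**
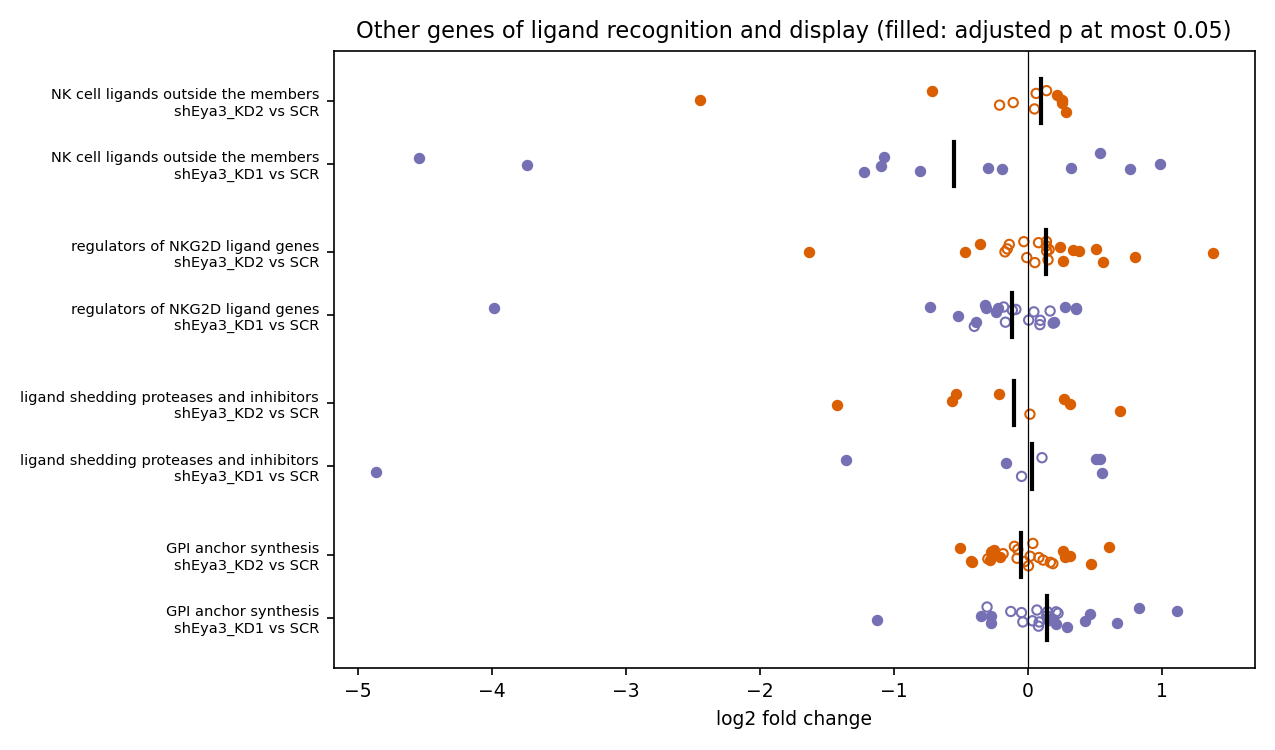
Log2 fold changes (x axis) of the tested genes of 4 lists, with shEya3_KD2 above shEya3_KD1 in each; filled points have an adjusted p of at most 0.05, open points do not, and bars are list medians. Other NK cell ligands had a median of 0.10 with shEya3_KD2 and -0.55 with shEya3_KD1.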

How the data were processed

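Messenger RNA libraries of 9 cultures (3 groups of 3) were prepared with a NuGEN Universal Plus kit, per the labels' protocols. The submitters' processing notes name FastQC, MultiQC, STAR and mm10. The tool used for counting, its annotation and strand setting were not given in the sources used here. Values are raw read counts by gene symbol, used as deposited, and 27758862 to 52691960 counts were present per library.

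Counts were fitted in R 4.3.3 with edgeR 4.0.16: filterByExpr left 15914 genes, scaling was by TMM, and all 9 libraries entered a quasi-likelihood fit with group as the only term, tested on simulated data. Standard errors came from the fold change and its F statistic. Replicates are labelled biological without further detail, and p-values measure only how these libraries vary. An exact permutation test of 3 libraries against 3 cannot go below 0.1. Replicate pairs differed beyond sampling noise, at a chi-square of 9.24 to 45.2 per degree of freedom.

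All 55418 symbols matched GENCODE M21. Promoter windows came from a separate list on GRCm38.p6, whose starts can differ from the gene starts of GENCODE and RefSeq. The members and gene lists were chosen with earlier results of these data known. Named list genes were up to 3 per list with the largest change against SCR, at least 1 CPM in a group and no overlap of libraries. One gene the rule names is not reported here. Alternatives were RLE, DESeq2 1.42.0, the compared groups alone, the replicate block, no filter, at least 1 CPM in 3 libraries, a summed Raet1 and H60b locus, and each library left out in turn.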

Additional observations from a re-analysis of the deposited data

Results flagged for a closer look

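Among the 6 ligands 2 passed the test of shEya3_KD2 against shEya3_KD1 in edgeR's fit, in which 49.6% of all genes tested passed. Clec2d differed by 5.16 on the log2 scale, being higher with shEya3_KD2 and lower with shEya3_KD1 than in SCR. Raet1e had a difference of 0.34, with both hairpin groups below SCR. Of 13 alternative fits only 2 kept the Raet1e call, those with a filter of 1 CPM in 3 libraries and without shEya3_KD2 replicate 3. The adjusted p was 0.0530 with the replicate block, and the summed locus had a difference of -0.062, so a difference of Raet1e between the hairpins is not established.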

How the results depend on the processing

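Across all alternatives 231 values of a ligand were compared with the main fit. Of these 212 kept the direction and the side of the threshold, or had no call before and after. A further 16 lost a call, 2 gained one and 1 called value changed sign. Values without a call before and after could also change sign, as Raet1d did between the hairpins (-0.080 to 0.244). With the locus summed, Raet1d, Raet1e and H60b share 1 value, which is counted for each of them. The called value that changed sign is that of Raet1e set against this sum. Against SCR all 6 ligands, or the 4 values left with the locus summed, were called with either hairpin under every alternative except for H60c, whose calls were lost by DESeq2 and without the single libraries named above, and H60c was not tested under the filter of 1 CPM in 3 libraries. Between the hairpins 2 ligands were called; the number was 1 with no filter, with only the groups compared, with the replicate block, by DESeq2 and with the locus summed, 3 with the filter of 1 CPM in 3 libraries, where H60b was gained (adjusted p = 0.0390), and from 1 to 2 when single libraries were left out. The ligand lost in the fits with 1 call was Raet1e, whose difference of 0.34 turned to -0.062 when its counts were summed with Raet1d and H60b. That sum includes H60b, whose own difference is negative. With RLE 1 call was exchanged, as Raet1e was lost (adjusted p = 0.0571) and H60b gained (adjusted p = 0.0476). Of all genes tested the alternatives called 24.7% to 51.1% in shEya3_KD2 against SCR and 28.3% to 54.9% in shEya3_KD1 against SCR. Between the hairpins they called 27.1% to 55.9%. Deviations of same-numbered replicates had correlations from -0.08 to 0.15 over 9 pairs. Pairs with different numbers had correlations from -0.19 to 0.13. The numbers gave no clear sign of pairing, but such weak correlations cannot show that same-numbered cultures were handled apart. Depth limits H60c and, in shEya3_KD1, Clec2d.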
